A study of Mus musculus with 6 samples.

Results

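The genes described here encode the nuclear subunits of the oxidative phosphorylation system, the respiratory complexes I to IV and the ATP synthase (complex V) of the mitochondrial inner membrane. They were chosen by gene symbol among protein-coding genes: Nduf followed by a, b, c, s or v and a digit, Sdha to Sdhd, every Uqcr symbol, Cox4 to Cox8, and Atp5. Of 84 such genes in the deposited table, 80 reached the minimum, a level of 1 TPM averaged over all 6 libraries, and are the members, among 12748 genes that reached it. TPM is a transcript level that is corrected for transcript length and stated relative to the library's total, so levels of different genes can be set side by side. By complex there were 34 members in complex I, 4 in complex II, 8 in complex III, 17 in complex IV and 17 in complex V, with Ndufa4 and Ndufa4l2 counted in complex IV, where their proteins are found.

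RNA was measured in endothelial cells, the cells that line blood vessels, sorted by flow cytometry from mouse lung. One group was 18 months old, labelled aged, and the other 8 months old, with 3 libraries each. All 6 carried the wt genotype label and no treatment, so no DNMT3A allele enters the comparison. Libraries were made from small amounts of total RNA with the SMARTer Ultra Low kit and read from both ends. The sources used here give no sort markers, strain or sex. Whether each library was made from its own mouse is not in the labels, so a p-value reflects library-to-library spread that may be technical.

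Complex I takes electrons from NADH and complex II, succinate dehydrogenase, takes them from succinate. Complex III passes them from coenzyme Q to cytochrome c, and complex IV, cytochrome c oxidase, passes them to oxygen. Complexes I, III and IV pump protons across the inner membrane, and complex V uses the returning protons to make ATP. A few subunits of complexes I, III, IV and V are encoded by mitochondrial DNA, and those genes were not analysed here. Endothelial cells are known to draw much of their ATP from glycolysis, and their mitochondria also serve biosynthesis and signalling.

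Promoters of many of these genes are known to carry binding sites of NRF1, of the ETS-family factor GABP and of YY1, 3 regulators of nuclear genes for mitochondria. RefSeq promoter sequences on GRCm38.p6, from 250 bases before to 50 bases after a transcription start, were held for 65 of the 80 members. They were searched on both strands for GCGCANGCG (NRF1), CCGGAAG (ETS) and AANATGGCG (YY1), where N is any base, and matches of a motif that overlapped were counted once. The 6 promoters printed show how dense such matches can be. They are 1 promoter with the most matches in each complex, and Ndufs6 as an example of the YY1 letters beside the NRF1 letters, all chosen after the matches were counted. Capitals mark the matches on either strand, so that the ETS letters may read CTTCCGG, and each sequence runs 5′ to 3′ along the gene's strand.
Ndufb4 (complex I, chr16:37654319-37654618, minus strand): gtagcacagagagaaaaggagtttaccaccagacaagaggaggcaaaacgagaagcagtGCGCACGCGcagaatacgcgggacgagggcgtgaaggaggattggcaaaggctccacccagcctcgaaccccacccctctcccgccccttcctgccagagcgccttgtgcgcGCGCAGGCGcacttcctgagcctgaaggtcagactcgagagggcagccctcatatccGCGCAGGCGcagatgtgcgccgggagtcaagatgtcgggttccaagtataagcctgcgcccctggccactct
Ndufs6 (complex I, chr13:73328433-73328732, minus strand): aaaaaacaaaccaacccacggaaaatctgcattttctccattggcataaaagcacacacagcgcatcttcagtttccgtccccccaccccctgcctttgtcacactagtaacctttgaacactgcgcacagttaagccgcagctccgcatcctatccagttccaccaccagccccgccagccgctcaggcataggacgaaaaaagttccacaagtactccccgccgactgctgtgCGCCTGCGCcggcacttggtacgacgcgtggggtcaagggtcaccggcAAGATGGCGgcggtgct
Sdha (complex II, chr13:74350191-74350490, minus strand): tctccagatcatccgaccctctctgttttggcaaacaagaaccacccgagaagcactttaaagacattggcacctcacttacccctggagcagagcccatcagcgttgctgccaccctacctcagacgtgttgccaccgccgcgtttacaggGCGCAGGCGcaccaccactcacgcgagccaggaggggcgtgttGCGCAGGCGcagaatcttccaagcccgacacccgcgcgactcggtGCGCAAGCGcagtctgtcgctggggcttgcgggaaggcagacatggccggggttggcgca
Uqcrc1 (complex III, chr9:108936398-108936697, plus strand): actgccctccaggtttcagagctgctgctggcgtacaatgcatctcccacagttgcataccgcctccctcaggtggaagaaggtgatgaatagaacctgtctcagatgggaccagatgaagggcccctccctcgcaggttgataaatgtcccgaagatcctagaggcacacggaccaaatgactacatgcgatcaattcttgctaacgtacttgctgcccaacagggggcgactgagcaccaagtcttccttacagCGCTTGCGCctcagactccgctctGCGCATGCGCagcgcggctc
Cox6a1 (complex IV, chr5:115348909-115349208, minus strand): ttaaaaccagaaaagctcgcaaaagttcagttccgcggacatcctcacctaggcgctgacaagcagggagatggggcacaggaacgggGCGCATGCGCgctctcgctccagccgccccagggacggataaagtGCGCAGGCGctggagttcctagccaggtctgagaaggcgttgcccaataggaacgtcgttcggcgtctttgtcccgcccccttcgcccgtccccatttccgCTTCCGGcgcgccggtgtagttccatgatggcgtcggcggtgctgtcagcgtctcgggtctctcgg
Atp5l (complex V, chr9:44920693-44920992, minus strand): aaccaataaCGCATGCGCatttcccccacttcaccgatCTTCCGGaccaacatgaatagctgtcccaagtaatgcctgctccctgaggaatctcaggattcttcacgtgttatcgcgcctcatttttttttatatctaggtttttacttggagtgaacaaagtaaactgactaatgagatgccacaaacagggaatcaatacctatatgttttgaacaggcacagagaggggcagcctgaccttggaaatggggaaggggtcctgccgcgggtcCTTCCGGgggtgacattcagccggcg

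The NRF1 letters were found in 20 of the 65 members with a promoter (30.8%) and in 9.63% of 17492 protein-coding genes with a promoter of this length. The ETS letters were in 16 members (24.6%) against 12.9% of all genes, and the YY1 letters were in 10 members (15.4%) against 3.64%. At least 1 of the 3 motifs was present in 38 members (58.5%) and in 22.7% of all genes. These counts describe letters in a window and do not show binding. The 20 members with the NRF1 letters had a median log2 difference between the ages of -0.03, as had the 45 members with a promoter and without them. At an unadjusted p under 0.05, 0 of the 20 and 8 of the 45 (17.8%) lay lower at 18 months, against 9.99% of all genes. Without overlap between the ages, 1 (5%) and 9 (20%) lay lower, against 14.2% of all genes. Whether the 2 groups differ was not tested.

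The members were well expressed. Their mean levels ran from 2.13 to 746 TPM with a median of 203 TPM, against a median of 14.9 TPM over all genes tested. Summed over members, the 18-month libraries held 16929, 20534 and 19462 TPM and the 8-month libraries 20876, 19863 and 17980 TPM, between 1.93% and 2.38% of the table. The sums of the ages overlapped, and the first 18-month library and the third 8-month library held the lowest sums. The member with the lowest level was Cox6b2 at 2.13 TPM, and just outside the minimum stood Cox8b with a mean of 0.566 TPM.

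No member passed the threshold of the age comparison, which was an adjusted p under 0.05 by limma's moderated test on log2(TPM + 1) with Benjamini-Hochberg adjustment over all 12748 genes. Over all genes 3 passed it, or 0.0235%. The smallest adjusted p among members was 0.133, for Ndufa4l2. At an unadjusted p under 0.05, 11 members lay lower at 18 months (13.75%) and 0 lay higher, against 9.99% and 3.45% of all genes. For 13 members (16.25%) every 18-month library lay below every 8-month library, and for 0 members the reverse held, against 14.2% and 4.48% of all genes. The shares of members on the low side were thus a few percentage points from those of all genes.

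Differences were small and tightly bounded for most members. The median log2 difference, 18 minus 8 months, was -0.03 over members and -0.08 over all genes, with 59 members below 0 and 21 above (73.75% below, against 66.2% of all genes). The 95% interval lay within 0.5 of 0 on the log2 scale for 63 members (78.75%), against 41.5% of all genes. The median standard error of a member was 0.12, against 0.16 over all genes. All 63 were among the 73 members at 30 TPM or more, and none of the 7 members under 30 TPM had so narrow an interval. The direction of these small differences changed with the scaling of the libraries. With median-of-ratios scaling in place of the deposited TPM the split was 23 below and 57 above 0, with a median of 0.07. Without the first 18-month library it was 21 below and 59 above.

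**Figure D1:**
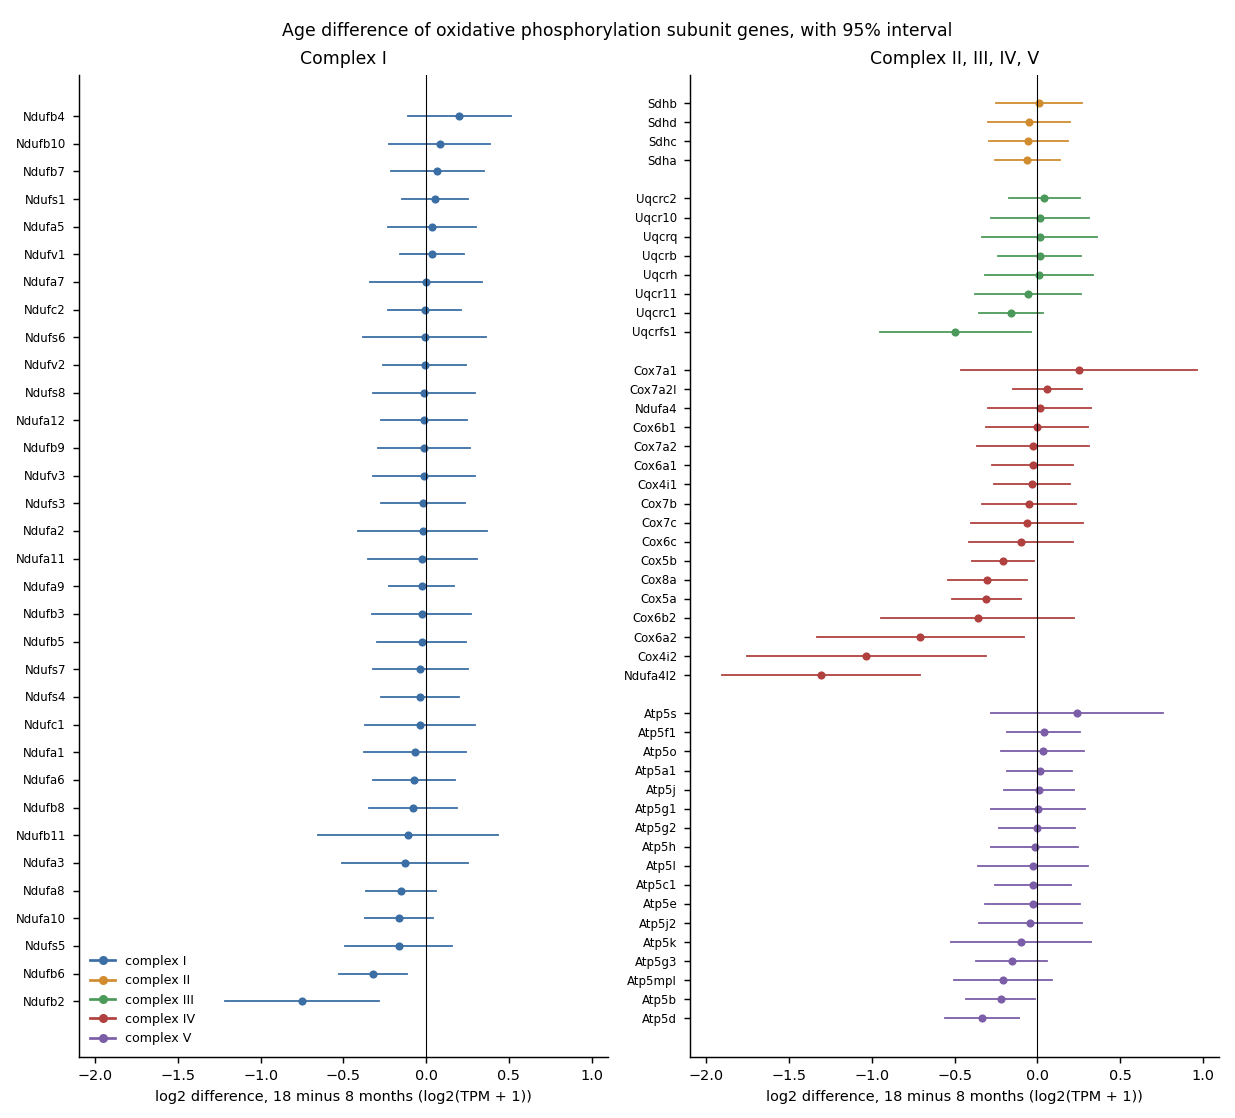
Log2 difference between 18 and 8 months on the log2(TPM + 1) scale (horizontal axis) for the members whose values are reported, in order of difference within each complex, with points for estimates and bars for 95% intervals from limma. Most points lie near 0 with short bars, and Ndufa4l2 (-1.31), Cox4i2 (-1.03), Ndufb2 (-0.75) and Cox6a2 (-0.71) lie farthest to the left.

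In complex I the core subunits, which carry the redox centres on the path from NADH to coenzyme Q, had nearly the same levels at both ages. The 7 nuclear core members had a median log2 difference of -0.01, and all had intervals within 0.5 of 0. Ndufv1, which binds NADH and the flavin, measured 175.6, 177.7 and 186.2 TPM in the older group, against 183.4, 172.4 and 171.0 TPM in the younger, a log2 difference of 0.03 (SE 0.08). Ndufs1, the largest iron-sulfur subunit, had 67.2 ± 2.92 TPM (SD, n = 3) at 18 months and 64.6 ± 0.546 TPM (SD, n = 3) at 8 months. Both genes had overlapping ages. Ndufs7 and Ndufs8, iron-sulfur subunits of the arm that leads to the quinone, lay at log2 differences of -0.03 and -0.01.

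The 27 accessory subunits of complex I, which surround the core and serve its assembly and stability, had a median log2 difference of -0.03, with 23 below 0 and 4 above. Of them 2 (7.41%) lay lower at an unadjusted p under 0.05, against 9.99% of all genes. Ndufb2, an accessory subunit of the membrane arm (chr6:39592574-39603382 on GRCm38, plus strand), measured 15.4, 20.5 and 11.4 TPM (18 months) and 23.5, 27.9 and 28.5 TPM (8 months). Every 18-month value lay below every 8-month value, and Ndufb2 was the least abundant member of complex I, with a mean of 21.2 TPM. Its log2 difference was -0.75 (SE 0.20), with an adjusted p of 0.195 in limma.

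Ndufb6, also of the membrane arm (chr4:40270591-40279421, minus strand), measured 109.5, 108.0 and 120.3 TPM in the 18-month libraries and 143.1, 144.5 and 135.3 TPM in the 8-month ones. The ages did not overlap, and the log2 difference was -0.32 (SE 0.09), with an adjusted p of 0.195 in limma. Of the 31-base words in Ndufb6 transcripts 34.4% also occur in transcripts of Smim27, so reads from the 2 genes cannot be fully told apart and the value is uncertain. Next by p were Ndufa10, an accessory subunit of the membrane arm whose ages also did not overlap (80.3 ± 2.07 against 90.1 ± 5.02 TPM, SD, n = 3 each), and Ndufa8, whose ages overlapped, with log2 differences of -0.16 and -0.15. With median-of-ratios scaling Ndufa10 lay at -0.07. The most abundant member of complex I was Ndufa3, another membrane-arm accessory subunit, at a mean of 534 TPM and with overlapping ages.

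Complex II, the one complex with no mitochondrially encoded subunit, had 4 members, whose levels were close in the 2 ages. Sdha, the flavoprotein that oxidises succinate, measured 235.6, 236.4 and 256.1 TPM in the older group, against 249.7, 263.1 and 246.8 TPM in the younger. Sdhb, the iron-sulfur subunit, had 299 ± 33.6 and 296 ± 22.2 TPM (SD, n = 3), and the membrane anchors Sdhc and Sdhd had 159 ± 14.1 and 167 ± 17.6 TPM at 18 months against 165 ± 11.4 and 173 ± 10.9 TPM at 8 months. In all 4 genes the ages overlapped, the log2 differences ran from -0.06 to 0.01, and all 4 intervals lay within 0.5 of 0.

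In complex III the lowest log2 difference was that of the Rieske iron-sulfur protein. Uqcrfs1, which hands electrons to cytochrome c1 (chr13:30540308-30545362, minus strand), measured 58.3, 37.3 and 58.5 TPM (18 months) and 59.2, 76.5 and 80.0 TPM (8 months). The ages were separated by less than 1 TPM at their nearest, between the third 18-month and the first 8-month library. The log2 difference was -0.50 (SE 0.20), with an adjusted p of 0.336 in limma, and it was -0.28 without the second 18-month library.

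Among the other complex III members, the core protein Uqcrc1 measured 287.5, 277.9 and 305.4 TPM in the 18-month libraries and 319.4, 332.8 and 320.9 TPM in the 8-month ones. Its ages did not overlap, and its log2 difference was -0.16 (unadjusted p 0.0938, limma), and -0.00 after each library was corrected for GC content and length. Its partner Uqcrc2 lay at 0.04 with overlapping ages. The 5 accessory subunits lay between -0.06 and 0.01, and they included Uqcrb, which lies near the quinone site and was the most abundant of the 80 members with a mean of 746 TPM. Of the 31-base words of Uqcrb 34.8% occur in other genes, so its level is uncertain.

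Complex IV held 6 of the 11 members that lay lower at an unadjusted p under 0.05. They were 35.3% of its 17 members, against 9.99% of all genes, a count not made by complex under the alternatives. The median log2 difference of complex IV was -0.07, against -0.08 over all genes. Its subunits include isoforms: a general form made in most tissues and a restricted form known from particular tissues or conditions. The general forms were abundant in these cells and the restricted ones were not. The 11 general subunits had a median level of 391 TPM and a median log2 difference of -0.05, and the 5 restricted isoforms among members had 4.62 TPM and -0.71.

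Ndufa4l2, a relative of the complex IV subunit Ndufa4 that is known as a target of hypoxia-inducible factors and as a transcript of pericytes (chr10:127514967-127517154, plus strand), measured 4.20, 3.62 and 3.25 TPM in the older group, against 16.4, 7.66 and 9.33 TPM in the younger. Every 18-month library lay below every 8-month library, and the first 8-month library was the highest. The means were 3.69 ± 0.480 and 11.1 ± 4.61 TPM (SD, n = 3 each), a ratio of 0.332. The log2 difference was -1.31 (SE 0.26), with a 95% interval from -1.91 to -0.71 and an adjusted p of 0.133 in limma. Over 19 alternatives it ranged from -1.52 to -1.02 with adjusted p from 0.0472 to 0.342, and the value under 0.05 came with library weights. Its partner Ndufa4 measured 446.1, 592.0 and 546.2 TPM (18 months) and 565.2, 538.6 and 460.1 TPM (8 months), with overlapping ages and a log2 difference of 0.01. The 2 genes share 3 words of 31 bases.

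Cox4i2, the isoform of the regulatory subunit 4 known from lung and from its part in oxygen sensing (chr2:152754173-152765037, plus strand), measured 10.8, 13.7 and 8.17 TPM in the 18-month libraries and 38.3, 17.0 and 18.3 TPM in the 8-month ones. The ages did not overlap, and the first 8-month library again held the highest value. The log2 difference was -1.03 (SE 0.31), with an adjusted p of 0.216 in limma, and it was -0.68 without the first 8-month library. Cox4i1, the general isoform, measured 531.1, 636.6 and 588.8 TPM in the older group, against 615.1, 602.9 and 578.1 TPM in the younger. Its ages overlapped, with a log2 difference of -0.04, and the 2 isoforms share 0 words of 31 bases. So at both ages the general isoform was by far the more abundant form of subunit 4.

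Markers of smooth muscle cells and pericytes, the mural cells around vessels, lay on the same side. Of 11 listed markers 8 were tested and all 8 lay below 0, as did 66.2% of all genes. Of the 8 markers 5 lay lower at an unadjusted p under 0.05, against 9.99% of all genes. Their median log2 difference was -0.67, although none passed the adjusted threshold. Their summed level was 38.3, 33.3 and 32.1 TPM in the 18-month libraries and 56.6, 64.4 and 48.5 TPM in the 8-month libraries. Cnn1, Cspg4 and Kcnj8 lay under 1 TPM, and no marker was at 0 in every library. Fibroblast markers (9 of 10 tested, all 9 below 0) lay lower at an unadjusted p under 0.05 in 3 cases. They summed to between 26.3 and 42.2 TPM at 18 months and between 43.5 and 63.1 TPM at 8 months. Endothelial markers (12 tested, 11 below 0) also lay lower, 4 of them at an unadjusted p under 0.05, with a median of -0.20. They summed to between 12914 and 13911 TPM at 18 months and between 14448 and 16033 TPM at 8 months, without overlap. RNA of the sorted cell type was thus present throughout, but not alone. Summed markers of lung epithelium exceeded the endothelial sum in the first and second 18-month and the third 8-month library. They were 19440, 16725 and 20417 TPM there, against 13911, 12914 and 14448 TPM. In the other libraries the endothelial sum was the higher. Such sums do not give shares of cells. Macrophage markers lay on the other side (10 of 12 tested, 9 above 0, median 0.66), whereas 66.2% of all genes lay below 0. Of these markers 2 lay higher at an unadjusted p under 0.05, against 3.45% of all genes. Their sums were 1602, 1787 and 1026 TPM in the 18-month and 734, 787 and 1865 TPM in the 8-month libraries, and the sums of the ages overlapped. The part of mural and other cells in the values of Ndufa4l2 and Cox4i2 was not tested, and in such bulk samples fewer cells of a type and less RNA per cell cannot be told apart.

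Hypoxia-inducible factors and their known targets, a list added after these isoforms had been seen, lay on both sides of 0. Of 11 tested genes 7 lay above 0, with a median log2 difference of 0.07, whereas 66.2% of all genes lay below 0, with a median of -0.08. At an unadjusted p under 0.05, 2 of the 11 lay higher and 0 lower, against 3.45% and 9.99% of all genes. Without overlap between the ages, 2 lay higher and 1 lower, against 4.48% and 14.2% of all genes. Vegfa, a growth factor for vessels, measured 84.3, 74.3 and 64.9 TPM (18 months) and 49.2, 53.5 and 41.7 TPM (8 months), and Ankrd37 lay at a log2 difference of 0.92. Neither passed the adjusted threshold in limma, with adjusted p of 0.155 and 0.128.

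**Figure D2:**
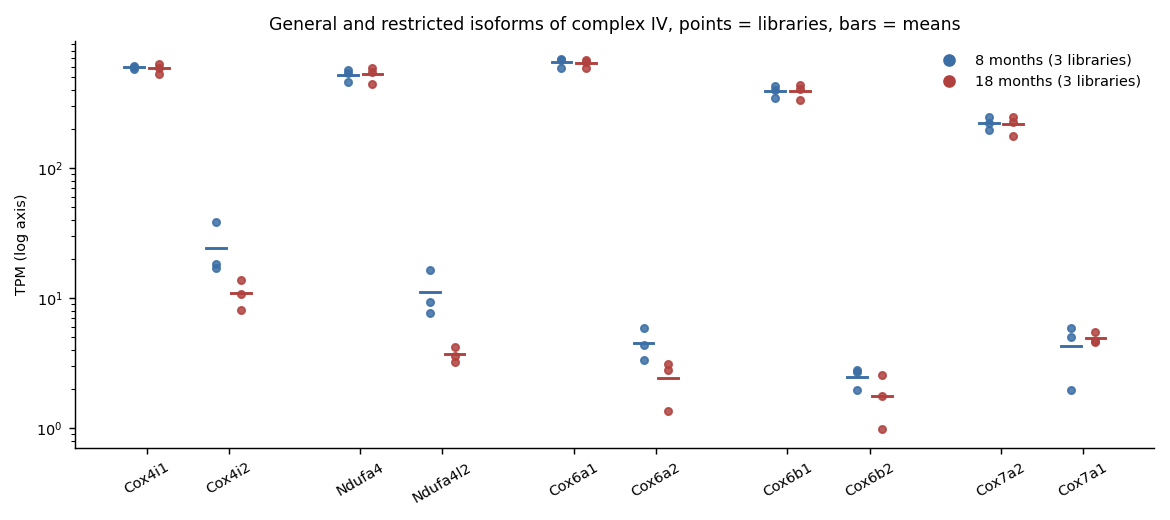
Level in TPM (vertical axis, log scale) of general and restricted isoforms of complex IV, with points for the 6 libraries, bars for the mean of each age, blue for 8 and red for 18 months. The 18-month points of Cox4i2, Ndufa4l2 and Cox6a2 all lie below the 8-month points, while the 18-month and 8-month points of Cox4i1, Ndufa4, Cox6a1, Cox6b1 and Cox7a2 overlap at levels above 150 TPM.

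The restricted isoforms known from heart and skeletal muscle were near the lower limit of the table. Cox6a2 measured 3.11, 2.82 and 1.36 TPM in the 18-month libraries and 4.35, 3.37 and 5.90 TPM in the 8-month ones, without overlap, and its log2 difference was -0.71 (adjusted p 0.318, limma). It was -0.46 without the third 18-month library, the lowest of the 6. Cox7a1 had 4.94 ± 0.520 against 4.30 ± 2.07 TPM (SD, n = 3) with overlapping ages, and so had Cox6b2, an isoform known from testis, with 1.77 ± 0.787 against 2.48 ± 0.463 TPM. Their general partners Cox6a1, Cox7a2 and Cox6b1 lay at 648, 219 and 391 TPM on average with log2 differences of -0.03, -0.03 and -0.00, and Cox7a2l, a factor of respiratory supercomplexes, lay at 0.06. Heart muscle markers summed to between 30.8 and 44.0 TPM in the 6 libraries, with overlapping ages. Below 1 TPM on average were Cox8b, a muscle isoform, and Cox7b2, and Cox8c was listed at 0 in every library.

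Of the 11 general subunits 3 (27.3%) lay lower at an unadjusted p under 0.05, against 9.99% of all genes. Their differences were smaller than those of the restricted isoforms at that level. Cox5a, a subunit of the matrix side (chr9:57521274-57532426, plus strand), measured 150.0, 143.2 and 151.7 TPM in the older group, against 187.4, 194.2 and 170.7 TPM in the younger, a log2 difference of -0.31 (SE 0.09) with an adjusted p of 0.204 in limma. Cox8a, a small membrane subunit (chr19:7215153-7217616, minus strand), measured 143.2, 156.0 and 152.7 TPM (18 months) and 181.9, 207.6 and 169.7 TPM (8 months), a log2 difference of -0.30 with an adjusted p of 0.262. Cox5b, a zinc-binding subunit named here after its values were seen, measured 148.7, 143.9 and 144.9 TPM in the 18-month libraries and 174.2, 165.3 and 166.4 TPM in the 8-month ones. In all 3 genes the ages did not overlap, and the 18-month libraries lay close together, with SDs of 2.55 to 6.65 TPM. The most abundant member of complex IV was Cox6a1.

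In complex V the F1 part, the catalytic head with its central stalk, held both members with an unadjusted p under 0.05, and the c-ring, the peripheral stalk and the membrane part held none. Both lay lower, and they were 11.8% of the 17 complex V members, against 9.99% of all genes. Atp5d, the delta subunit of the central stalk (chr10:80138632-80145818, plus strand), measured 140.7, 133.5 and 146.9 TPM in the older group, against 165.2, 194.1 and 173.3 TPM in the younger, a log2 difference of -0.33 with an adjusted p of 0.204 in limma. Atp5b, the catalytic beta subunit (chr10:128083273-128090391, plus strand), measured 378.8, 343.3 and 369.9 TPM (18 months) and 404.3, 448.0 and 422.5 TPM (8 months), a log2 difference of -0.22 with an adjusted p of 0.339. Both had no overlap between ages. Atp5a1, the alpha subunit that forms the hexamer with beta, measured 315.3, 299.4 and 320.0 TPM in the 18-month libraries and 295.4, 316.4 and 314.4 TPM in the 8-month ones, a log2 difference of 0.01. The gamma subunit Atp5c1 lay at -0.03, and both overlapped.

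Of the 3 genes for the one protein of the c-ring, the rotor that protons turn, Atp5g2 was the most abundant at 353 TPM, followed by Atp5g3 and Atp5g1 at 195 and 185 TPM. Their log2 differences were -0.00, -0.16 and 0.01, all with overlapping ages. The levels of Atp5g3 and Atp5g1 did not differ beyond their spread, and 40.2% of the 31-base words of Atp5g2 occur in other genes, so its level is uncertain. The 4 peripheral stalk members lay between -0.02 and 0.04, and they included Atp5h, the most abundant member of complex V at 649 TPM. Other genes hold 25.4% of the 31-base words of Atp5h, so its level is uncertain too. The 4 members of the membrane part lay between -0.21 (Atp5mpl, a small membrane subunit) and -0.03. The least abundant member was Atp5s, coupling factor B, at 7.26 TPM, which matches the symbol rule without being a structural subunit.

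Ndufa13, an accessory subunit of complex I also known as GRIM-19, was listed at 0.131, 0 and 0 TPM in the older group, against 0, 0.171 and 0.784 TPM in the younger, although it is known as a constitutive subunit. The 34 complex I members had means above 20 TPM. Of its 31-base words 33.2% occur in other genes, 28.3% in Tssk6, which itself lay between 0.0621 and 0.440 TPM. Whether the listed values of Ndufa13 are failed estimates was not tested.

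For most members the range over the libraries of an age was wider than the difference between the age means. In the first 18-month library 48 of the 80 members had their lowest value, and in the third 8-month library 15 had. The median deviation of members from their own mean over 6 libraries was -0.17, 0.10 and 0.02 in the 18-month libraries and 0.12, 0.04 and -0.09 in the 8-month libraries, on the log2(TPM + 1) scale. Over all genes these medians were 0.03, -0.12 and -0.03, and 0.00, 0.10 and 0.02. For 67 members the range within the 18-month libraries exceeded the size of the age difference, and for 66 the range within the 8-month libraries did. A range over single libraries is readily wider than a difference between means. Neither these counts nor those of lowest values were made over all genes, so they do not set the members apart. All 5 complexes had their lowest median in the first 18-month library.

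**Figure D3:**
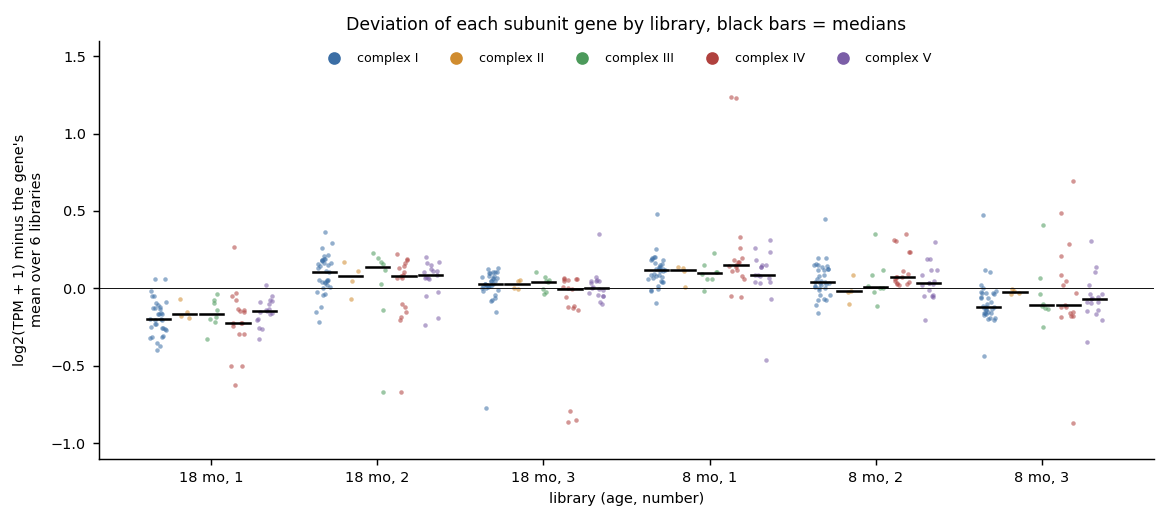
Deviation of log2(TPM + 1) from the gene's mean over 6 libraries (vertical axis) for each member in each library, coloured by complex, with black bars for the median of each complex. All 5 bars lie below 0 in the first 18-month and the third 8-month library, and above 0 in the second 18-month and the first 8-month library.

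The deviation went with transcript length among members. The Spearman correlation of length with deviation over the 80 members was 0.47, -0.39 and 0.01 in the 18-month libraries and -0.32, -0.18 and 0.40 in the 8-month libraries, over genes that share each library. Over 12658 genes with a length it was 0.18, -0.31 and -0.02, and -0.01, 0.10 and 0.10. The 48 members lowest in the first 18-month library had a median length of 713.5 nt, and the other 32 had 986 nt, against 2906 nt for all genes tested. Summed markers of lung epithelium (10 of 12 tested, 8 below 0, with Epcam and Foxj1 under 1 TPM) were also highest in the libraries that were low in members, at 19440 TPM in the first 18-month and 20417 TPM in the third 8-month library, against 16725 and 9604 TPM in the other 18-month and 11147 and 12072 TPM in the other 8-month libraries. Within each age the summed markers of lymphocytes, erythroid cells and heart muscle were likewise highest in these 2 libraries. Lymphocyte markers (8 of 12 tested) summed to 32.1 TPM in the first 18-month and 72.0 TPM in the third 8-month library, and to between 23.0 and 28.4 TPM in the others. Erythroid markers (5 of 6 tested) summed to 717 and 1843 TPM in these 2 libraries, and to between 324 and 700.3 TPM in the others. The value of 700.3 TPM was that of the second 18-month library, close to the first. Heart muscle markers (7 of 10 tested) summed to 44.0 and 37.0 TPM in these 2 libraries, and to between 30.8 and 34.2 TPM in the others. The value of 34.2 TPM was that of the first 8-month library, close to the third. Other lists did not follow. Summed macrophage and platelet markers were highest at 18 months in the second library (1787 and 29.3 TPM), and at 8 months in the third (1865 and 49.6 TPM). Summed endothelial, mural and fibroblast markers had their lowest 8-month value in the third 8-month library. The part of length and of RNA from other cells in these deviations was not tested.

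**Figure D4:**
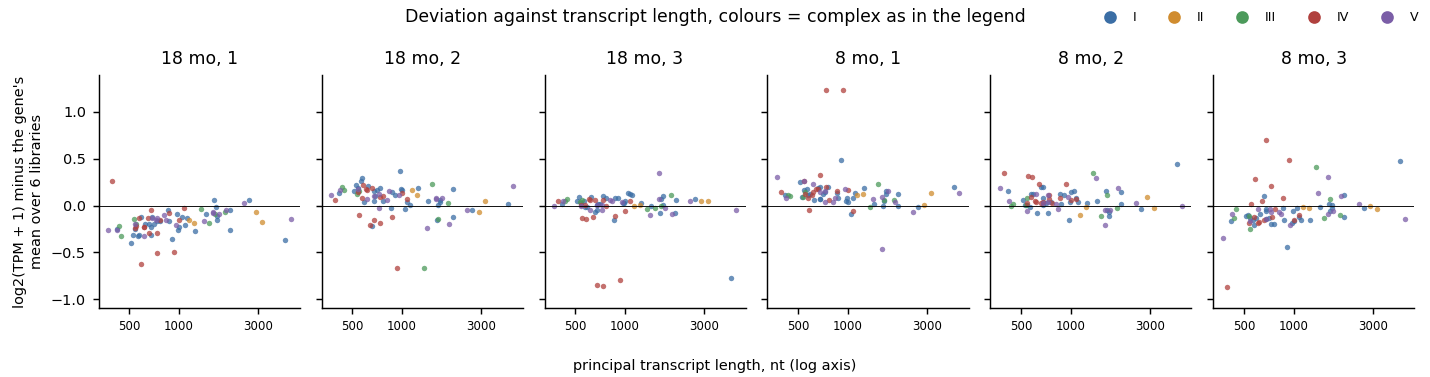
Deviation of log2(TPM + 1) from the gene's mean over 6 libraries (vertical axis) against the length of the principal transcript in nt (horizontal log axis), 1 point a member, coloured by complex, 1 panel a library. Short members lie low in the first 18-month and the third 8-month library (Spearman 0.47 and 0.40) and high in the second 18-month and first 8-month library (-0.39 and -0.32).

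Without both of these libraries, which leaves 2 libraries an age, the members split 41 below and 39 above 0, with a median log2 difference of -0.01, and 0 passed the adjusted threshold. Of them 7 lay lower and 1 lay higher at an unadjusted p under 0.05. Each of the 11 members named above with an unadjusted p under 0.05 kept a difference below 0 in every alternative run. These members were picked for lying lower in the same libraries, so the kept sign is no independent support. The differences nearest to 0 were -0.11 for Cox5b and -0.13 for Atp5b, both with median-of-ratios scaling. After correcting each library for GC content and length, Atp5d lay at -0.15. The medians by complex did not keep their direction. They lay at -0.02, -0.05, 0.01, -0.07 and -0.03 for complexes I to V as deposited, and at 0.07, 0.04, 0.10, 0.03 and 0.07 with median-of-ratios scaling.

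**Figure D5:**
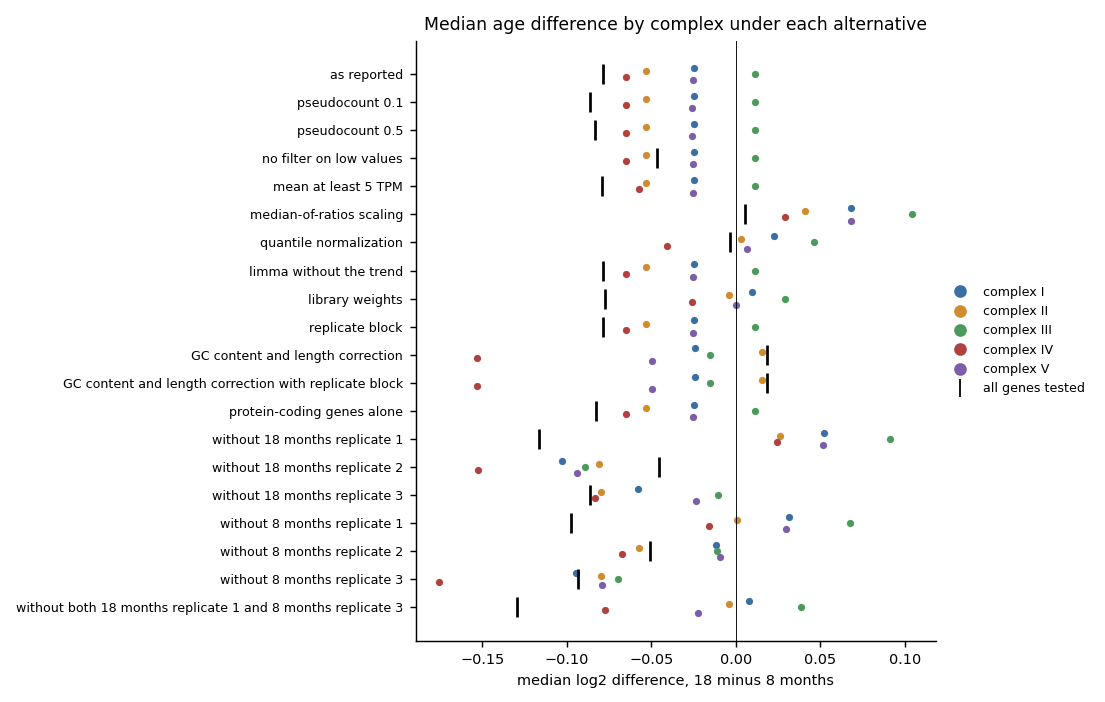
Median log2 difference, 18 minus 8 months, of each complex (coloured points) and of all genes tested (black bars) with the processing as reported and under each alternative (rows). All 5 points lie above 0 with median-of-ratios scaling and without the first 18-month library, and all 5 lie below 0 without the second 18-month, the third 18-month, the second 8-month or the third 8-month library.

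Other genes of the pathway lay near the members. Of 52 tested assembly factors of the complexes none passed the adjusted threshold, and the median log2 difference was -0.12. Of them 2, Atpaf1 and Ndufaf8, lay lower at an unadjusted p under 0.05, against 9.99% of all genes. Atpaf1, a chaperone of the F1 head, had 11.8 ± 1.91 against 17.1 ± 0.997 TPM (SD, n = 3). Ndufaf8, a complex I assembly factor, had 47.7 ± 1.22 against 59.6 ± 7.33 TPM. Among 25 mobile carriers, nucleotide and phosphate carriers and genes of coenzyme Q synthesis, 0 passed at either level. Cycs, cytochrome c, had 91.7 ± 2.37 against 95.2 ± 14.0 TPM, and Vdac1, the main pore of the outer membrane, lay at a log2 difference of -0.25. The symbol rule leaves out 4 genes of the complexes, of which 0 passed the adjusted threshold: cytochrome c1 (Cyc1) lay at -0.13, the acyl carrier subunit Ndufab1 at -0.35, the ATP synthase inhibitor Atpif1 at 0.24 and the small ATP synthase subunit Usmg5 at -0.10. This list of 4 was made after the data had been seen, and Ndufab1 is also counted among the 52 assembly factors.

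Of 18 genes of pyruvate dehydrogenase and the citric acid cycle 2 lay lower at an unadjusted p under 0.05 and the median was -0.03. Over all genes 9.99% lay lower and 3.45% higher at that level. Dlat, the acetyltransferase of pyruvate dehydrogenase, lay at -0.56 and Idh2, the mitochondrial NADP-dependent isocitrate dehydrogenase, at -0.44, with adjusted p of 0.155 and 0.181 in limma. Of 28 genes of protein import 4 lay lower at that level, with a median of -0.07, and Tomm40, the channel of the outer membrane, lay at -0.68. Of 78 mitochondrial ribosomal protein genes 7 lay lower and 2 higher, with a median of -0.05. Mrps21 lay at 0.78, Mrpl42 at 0.57 and Mrps26 at -0.70, and none of the 3 passed the adjusted threshold.

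No regulator of nuclear genes for mitochondria passed the adjusted threshold. The median log2 difference of 20 tested regulators of mitochondrial biogenesis and mitochondrial DNA expression was -0.14. Of them 1 lay lower at an unadjusted p under 0.05, against 9.99% of all genes. That one was Polrmt, the RNA polymerase of mitochondria, at 10.0 ± 2.13 against 13.8 ± 1.75 TPM (SD, n = 3). Nrf1, whose letters were searched in the promoters, measured 58.5, 47.3 and 53.6 TPM (18 months) and 60.5, 67.0 and 56.2 TPM (8 months), with overlapping ages. Gabpa, the DNA-binding part of GABP, lay at a log2 difference of -0.16, Yy1, named for its motif, at -0.15, the nuclear receptor Esrra at -0.43, Tfam, which packages mitochondrial DNA, at -0.11, and the coactivator Ppargc1a at 0.19, and Ppargc1b lay under 1 TPM.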

How the data were processed

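RNA of sorted lung endothelial cells was measured in 3 libraries at 18 months and 3 at 8 months. The authors deposited TPM for 24520 Ensembl gene identifiers. The tools named per the submitters' processing notes are kallisto, which assigns reads to transcripts, and the build mm10. The sources used here give neither its version, nor its transcript set, nor how strand was handled. The kit does not mark strand, so overlapping genes on opposite strands share reads. TPM keep no depth, so each library's depth is unknown and counting error cannot be stated. The deposited TPM sum to between 869315 and 876126 per library.

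Symbols, positions, lengths and GC content came from GENCODE M21 on GRCm38 (24299 identifiers found, 221 not found). Genes averaging 1 TPM or more were tested as log2(TPM + 1), which understates changes of low genes, with limma 3.58.1 in R 4.3.3: intensity trend, age as the sole term, 2-sided, Benjamini-Hochberg adjustment, threshold 0.05 and 95% intervals. In data simulated for this comparison over 12748 genes, 7 of 50 genes were called at a log2 change of 0.5, 29 at 1, 45 at 2 and 47 at 3.

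Transcripts were compared by shared 31-base words, since kallisto divides reads between near-identical transcripts. Words shared with other genes made up 10% or more for 30 of the 80 members. Among these were Cox6a1 (18.5%), Uqcrc2 (18.5%), Cox5b (16.1%) and Cox5a (13.8%), whose levels carry the same uncertainty. Genes were named by p within each complex, by highest and lowest level, by catalytic role or isoform, and by p within related lists. The RefSeq promoters held no entry for 15 members, among them Cox4i2, Ndufa2, Cox6c, Atp5mpl, Uqcrb, Ndufb9, Atp5a1, Ndufs1, Cox6a2, Uqcrc2, Cox4i1, Ndufa4l2, Uqcrq and Sdhc. Alternatives changed the pseudocount, the filter, the scaling, the trend, library weights, a GC and length correction, the gene types, the replicate block and the libraries used. The values of 1 member are not reported here. The members and lists were chosen with earlier results of these data known.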

Additional observations from a re-analysis of the deposited data

How the results depend on the processing

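Over all genes 3 passed the threshold as reported, and 0 did without the filter on low values, 16 did with quantile normalization, 94 with library weights, 28 over protein-coding genes alone, and 0 to 2 leaving out 1 library. With the replicate block it was 0 with and without a GC content and length correction, and no member passed. The labels do not say whether a replicate number marks a shared animal, litter or day. Same-numbered libraries deviated with correlations of -0.01, -0.09 and 0.06, and 2 of 6 correlated best with their own number. With 3 libraries an age these values cannot decide whether the numbers pair the libraries. The count of members past the threshold was 0 in every alternative but library weights, where it was 1 (Ndufa4l2). The median log2 difference of all members ranged from -0.10 to 0.05 leaving out 1 library, that of complex I from -0.10 to 0.05, of complex II from -0.081 to 0.026, of complex III from -0.089 to 0.091, of complex IV from -0.175 to 0.024 and of complex V from -0.09 to 0.05. With median-of-ratios scaling complexes II, III and IV lay at 0.041, 0.104 and 0.029, and with the GC content and length correction complex IV lay at -0.15, with and without the block. Leaving out the first 18-month and the third 8-month library together, an alternative chosen after seeing the data, as was counting Ndufa4 and Ndufa4l2 in complex I, gave 0 genes. Members lower at an unadjusted p under 0.05 numbered 6 to 11 over the alternatives, and members lower without overlap numbered 8 with median-of-ratios scaling and 20 without the third 8-month library. The causes of these shifts were not tested. With 3 libraries an age, differences of 0.5 on the log2 scale are mostly below what the test can call.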
